A study of Mus musculus with 12 samples.

Results

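CpG methylation was compared between 3 samples of oral soft tissue from mice given the carcinogen DBP together with BR extract and 3 from mice given only the vehicle, DMSO. These were 6 of the 12 samples of the series, and they were chosen by their labels. The comparison rested on 41249 autosomal CpG positions with 10 or more reads in each of the 6 samples, which were 0.815% of the 5060288 autosomal positions read in any sample. It also used 29642 of 1085959 windows of 1000 bp (2.73%, called tiles below), each with 20 or more reads in every sample. Promoters, within 1000 bp of a start of a protein-coding gene, were measured for 11057 of 21410 annotated genes (51.6%) at the same minimum.

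All animals were female B6C3F1/J mice, a hybrid strain, described as 8 weeks old. That is their age before the treatment, not at sampling. DBP, dibenzo[a,l]pyrene, is a polycyclic aromatic hydrocarbon of tobacco smoke. It was placed in the oral cavity at 24 nmol on 3 days a week for 5 weeks, and tissue was taken 48 h after the last dose. The buccal mucosa, the floor of the mouth and the soft tissue of the hard palate were pooled for each sample, so that each value is a mean over the cell types of these sites. The dose, the route and the timing of BR extract were not given in the sources used here. Both DBP and BR extract differed between the groups, so the effect of one and that of the other cannot be told apart in this comparison. The remaining samples, 3 with DBP alone and 3 with DBP and an agent that the labels leave unnamed, are set beside the results only where stated. The labels number the samples but do not say that each came from a separate animal. Where a p-value below includes a spread, it is only that between these samples, which may be technical. The logistic regression of single CpGs counts reads and does not include that spread.

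DNA methylation in mammals is the addition of a methyl group to cytosine, mostly where a guanine follows (CpG). Most CpGs of the genome are methylated, whereas dense clusters of CpGs at promoters, the CpG islands, are usually free of it. DNMT1 copies the pattern after replication, DNMT3A and DNMT3B add new marks, and TET enzymes oxidise the mark on the way to its loss. A position that is methylated in some cells, or on 1 parental allele, is read at an intermediate level. In enhanced reduced representation bisulfite sequencing (ERRBS), DNA is cut at CCGG by the enzyme MspI, short fragments are kept, and bisulfite turns unmethylated cytosine into a base read as thymine. The share of reads that keep the cytosine is the methylation level of the position.

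The sequences around 7 places that carry the results below are given here, from the mm9 reference and the plus strand, with the CpGs that passed the test in capitals. The first 3 are from CpGs that passed the test with the same number of reads drawn in every library. The next 2 lie in promoters among unmethylated neighbours, and the last 2 hold 3 CpGs that moved together.
Megf9, between genes, chr4:70532593-70532654: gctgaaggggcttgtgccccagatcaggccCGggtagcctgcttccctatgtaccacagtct
Slco4a1, between genes, chr2:180130384-180130445: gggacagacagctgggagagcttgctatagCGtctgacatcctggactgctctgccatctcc
Slc4a3, between genes, chr1:75746472-75746533: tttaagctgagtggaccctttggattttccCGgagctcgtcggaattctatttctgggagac
Trank1, promoter, chr9:111214952-111215013: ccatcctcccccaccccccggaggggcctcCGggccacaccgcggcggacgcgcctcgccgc
Ppp6r1, promoter, chr7:4610713-4610774: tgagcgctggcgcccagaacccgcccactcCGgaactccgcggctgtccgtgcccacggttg
Sfpi1, intron, chr2:90924729-90924820: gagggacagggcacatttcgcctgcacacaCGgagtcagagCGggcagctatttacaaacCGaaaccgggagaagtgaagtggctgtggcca
Gnas, intron, chr2:174120965-174121064: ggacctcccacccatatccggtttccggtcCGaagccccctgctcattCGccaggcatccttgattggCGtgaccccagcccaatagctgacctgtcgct

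The libraries of the groups differed in depth, and all 3 BR extract libraries were deeper than any DMSO library. The DMSO libraries held 7774032, 5242017 and 3287367 CpG calls, and the BR extract libraries 78889043, 17712547 and 26280440 calls. At the 41249 shared positions the medians were 33, 24 and 16 reads in DMSO and 34, 73 and 102 reads in BR extract. BR extract sample 1 had only 5.08% of its calls at these positions, against 20.8% to 25.4% in the other 5 libraries. Depth and treatment therefore cannot be told apart in this pair of groups. For the levels in this and the next paragraphs, 10 reads were drawn at each position in each sample. At 10 reads, a level of 50% has a 95% Wilson interval from 23.7% to 76.3%, which covers counting error only, since amplified reads without molecular tags are not independent molecules.

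The mean level over the shared positions did not separate the groups. It was 34.2%, 34.0% and 33.8% in DMSO samples 1 to 3 and 34.0%, 33.5% and 33.7% in BR extract samples 1 to 3. The group means were 34.0% ± 0.208 (SD, n = 3) and 33.8% ± 0.257, a difference of -0.213 percentage points (two-sided exact permutation test, p = 0.4, where the smallest p for 3 against 3 samples is 0.1). The difference was -0.0911 points without DMSO sample 1, -0.383 without DMSO sample 3, -0.388 without BR extract sample 1 and -0.118 without BR extract sample 2. Promoter positions, 50.4% of all, read 9.08%, 9.20% and 8.97% in DMSO and 8.84%, 8.61% and 8.56% in BR extract, so each BR extract sample lay below each DMSO sample. The difference was -0.414 points (two-sided exact permutation test, p = 0.1, adjusted over the 4 kinds of position p = 0.4). Positions in exons differed by 0.258 points, those in introns by -0.199 points and those between genes by -0.0203 points, and in each the groups overlapped. Over all autosomal calls, which mix different positions in each library, the methylated share was 32.4%, 40.4% and 40.9% in DMSO and 28.8%, 38.9% and 33.7% in BR extract (difference -4.11 points, two-sided exact permutation test, p = 0.3). That difference was -1.60 points without BR extract sample 1, -6.66 without BR extract sample 2, -6.84 without DMSO sample 1, and -1.87 at positions with 10 or more reads in a sample.

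The groups did separate in the share of positions at an intermediate level, between 20% and 80%. That share was 29.4%, 29.2% and 29.5% in DMSO samples 1 to 3. In BR extract samples 1 to 3 it was 25.2%, 26.4% and 27.1%. The means were 29.3% ± 0.170 (SD, n = 3) and 26.2% ± 0.947, a difference of -3.13 points, and p was the smallest that 6 samples allow (two-sided exact permutation test, p = 0.1). Fewer intermediate positions went with more at both ends of the scale. Positions read as fully methylated made up 10.2% ± 0.597 in DMSO and 13.2% ± 0.955 in BR extract, and positions with no methylated read 46.3% ± 0.258 and 47.9% ± 0.474. Neither pair of groups overlapped.

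**Figure D1:**
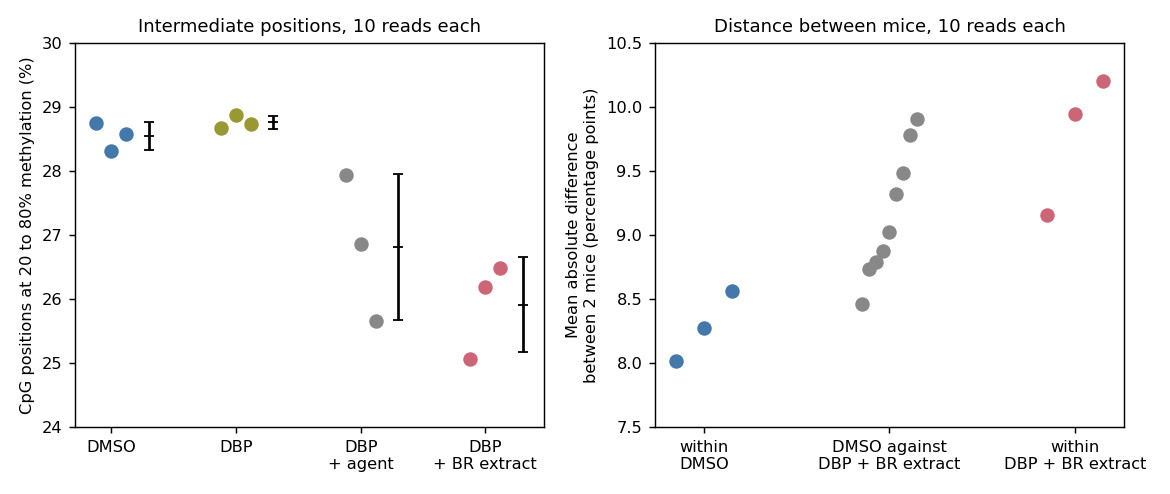
Left, share of CpG positions (%, y axis) read at 20 to 80% methylation in each of the 12 samples (points, with mean ± SD of 3 beside them) at 37218 positions with 10 drawn reads in every sample; the BR extract samples lie between 25.1 and 26.5, below all DMSO samples (28.3 to 28.7). Right, mean absolute difference (percentage points) between each 2 samples at the 41249 positions shared by the 6 samples; the 3 pairs within BR extract lie at 9.16 to 10.2 and the 3 within DMSO at 8.02 to 8.56.

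The positions that were intermediate in the 6 samples outside this comparison shifted most. At those 10101 positions, 79.6% ± 1.48 (SD, n = 3) of the DMSO levels were also intermediate, against 70.5% ± 4.18 of the BR extract levels, and the mean level was 48% against 46.5%. At 21424 positions low in those samples the mean was 2.27% and 2.28%. At 9724 positions high in them it was 89.2% ± 0.157 and 89.9% ± 0.198, higher in each BR extract sample than in each DMSO sample, and the intermediate share 29.2% ± 0.738 and 25.5% ± 0.345. The BR extract samples also differed more from each other. The mean absolute difference between 2 samples was 8.29 points within DMSO (range 8.02 to 8.56), 9.77 points within BR extract (9.16 to 10.2) and 9.15 points between the groups. At the intermediate positions it was 18.2 points within DMSO and 22.0 points within BR extract. These pairs share samples, so no test was made. Drawing 10 reads equalises the number of reads, not that of independent molecules. With all reads, the squared difference between 2 samples was also taken relative to counting error alone. It averaged 1.42 to 1.72 per position within DMSO and 5.24 to 5.88 within BR extract, a value that also depends on depth. How much of the spread is technical was not tested.

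The same values were read in the other groups and set beside the depth of the libraries. At the 37218 positions with 10 or more reads in all 12 samples, the intermediate share was 28.3% to 28.7% in DMSO and 28.7% to 28.9% in DBP alone. It was 25.7% to 27.9% with DBP and the unnamed agent, and 25.1% to 26.5% with DBP and BR extract. The mean absolute difference between 2 samples of a group was 8.06 points in DMSO, 8.03 in DBP alone, 8.85 with the unnamed agent and 9.5 with BR extract. The agent and the BR extract groups held the 6 deepest libraries, with 16908728 to 78889043 calls, against 3287367 to 7974299 in the other groups. Within these groups the order by calls varied. The deepest agent library, with 39615620 calls, had the highest intermediate share of its group. The deepest BR extract library had the lowest share of its group. By the median reads at the positions themselves, the share rose with depth within both of these groups. Agent samples 1 to 3 had 131, 97 and 73 reads and shares of 27.9%, 26.9% and 25.7%. BR extract samples 1 to 3 had 37, 76 and 108 reads and shares of 25.1%, 26.2% and 26.5%. DMSO samples 1 to 3, with 36, 25 and 16 reads, had 28.7%, 28.3% and 28.6%, which did not follow that order. BR extract sample 1 thus had the lowest share, with 37 reads against 36 in DMSO sample 1. The plus and the minus strand of a CpG could be compared at 54 CpGs only. Within a sample the strands differed by 15.9 points ± 0.807 (SD, n = 3) in DMSO and 18.6 points ± 1.05 in BR extract (two-sided exact permutation test, p = 0.1). The part of depth in these differences was not tested.

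Single CpGs were then tested with the logistic regression and thresholds of the study, after its scaling of coverage and with both strands merged. Of 41899 CpGs tested, 480 differed by over 25 points at q under 0.01, which is 1.15% of those tested. Of these, 177 were higher and 303 lower in BR extract. At over 10 points 4602 CpGs passed, 11% of those tested, with 2006 higher and 2596 lower. This regression counts reads as independent and does not include the spread between samples. Its q-values also rest on reads multiplied by the scaling, up to 3 times in DMSO. An unadjusted p under 0.05 was found at 35.7% of all CpGs with scaling and at 20.04% without it, where 350 CpGs passed at 25 points and 1176 at 10 points. With 10 reads drawn per CpG in each sample and no scaling, 8 CpGs passed, 2 higher and 6 lower. The test there was the same regression, without the spread between samples, and 3719 CpGs (8.88%) had an unadjusted p under 0.05. By edgeR on unscaled reads, where the spread between samples enters a negative binomial fit, 0 passed, and 2429 CpGs (5.80%) had an unadjusted p under 0.05. The test and the scaling both differ between 480 and 0.

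The called CpGs were not spread over the genome as the tested ones were. Promoters held 50.6% of tested CpGs but 23.2% of those called higher and 20.8% of those called lower. Introns held 15.8% of tested CpGs, 32.8% of those called higher and 30.4% of those called lower. The median number of CpGs within 100 bp was 12 for tested CpGs, 6 for those higher and 7 for those lower. A CCGG, the site cut by MspI, held 32.7% of tested CpGs, 40.7% of those higher and 53.5% of those lower. In the 6 samples outside this comparison, 25.6% of tested CpGs were intermediate, against 84.7% and 81.8% of those called higher and lower. A CpG near 0% or 100% can move by 25 points in 1 direction only, so some of these shares follow from the threshold. By chromosome the share called ran from 0.665% on chromosome 13 to 2.05% on chromosome 3, with a 95% Wilson interval of 1.49% to 2.82% there.

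The levels of the called CpGs in the other groups lay between the 2 that chose them. Among 137 CpGs called higher with enough reads in all 12 samples, the median level was 41.1% in DMSO, 55.1% in DBP alone, 54.5% with the unnamed agent and 67.8% in BR extract. Among 243 called lower it was 65.7%, 56.0%, 55.1% and 33.0%. The DMSO and BR extract values were used to choose these CpGs, so their distance from the others is a description only. The 3 percentages of 1 group and the 3 of the other did not overlap at 251 of the 480 CpGs, 82 higher and 169 lower. Over all tested CpGs that share was 6.47%, and the threshold of 25 points favours it among called ones.

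**Figure D2:**
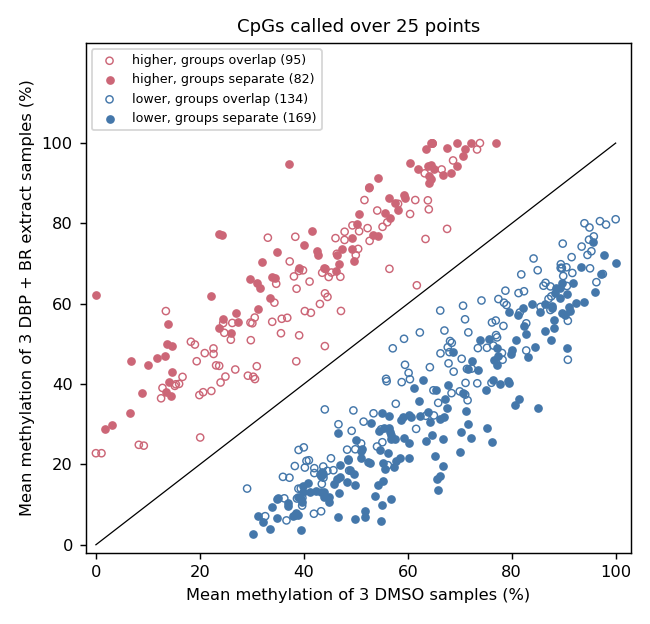
Mean methylation (%) of the 3 BR extract samples against that of the 3 DMSO samples for the 480 CpGs called over 25 points; filled points are CpGs whose 3 and 3 percentages do not overlap. The 177 higher CpGs all have a DMSO mean below 80%.

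Neighbours were not chosen for their difference, whereas the called CpGs were, so a smaller difference at neighbours follows from the threshold. Within 50 bp of a called CpG the median difference of the tested neighbours was 3.48 points in the direction of the call, over 898 pairs. Of these pairs, 34.3% moved over 10 points the same way and 3.12% over 10 points the other way. Of the 480 CpGs, 73 (15.2%) lay in 32 runs of 2 or more called the same way within 500 bp, 9 runs higher and 23 lower, and no run held more than 3.

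The 8 CpGs that passed with 10 drawn reads were separate in all 3 against all 3 samples when every read was used. They were singled out after their values were seen, and each was also among the 480. Between genes, at -336661 bp from the start of Megf9, which encodes a membrane protein with EGF-like repeats, no DMSO sample had a methylated read (0 of 16, 0 of 10 and 0 of 15), which at 3 reads allows levels of up to 18.8%, 30% and 20%. The BR extract samples read 61.5%, 95.2% and 30% there, at 13, 21 and 10 reads. DBP alone read 12.5%, 16.7% and 18.8%, and the agent samples 31.8%, 58.8% and 38.1%, so the 3 BR extract levels overlapped those of the agent samples. Of the 20 CpGs named by rank further on, this was the only one that passed with drawn reads (q = 5.37e-05), and its q by edgeR was 0.0411.

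The other CpG that rose at equal depth lay between genes at -60536 bp from the start of Slco4a1, a transporter of organic anions. It read 31.2%, 40% and 0% in DMSO and 85%, 80% and 67.3% in BR extract. The other 6 were lower in BR extract. In Scarf1, a scavenger receptor of endothelial cells, a coding CpG 850 bp after the start read 93.8%, 75% and 86.4% in DMSO and 0%, 54.3% and 47.9% in BR extract. A CpG between genes read 60%, 50% and 45.5% in DMSO and 0%, 12.5% and 8.33% in BR extract. Its nearest start, 200090 bp away, was that of Slc4a3, an anion exchanger. At Cep70, a centrosomal protein, a CpG 95 bp after the start read 40%, 38.5% and 40% in DMSO and 0%, 1.92% and 8.82% in BR extract. Further CpGs lay in the coding sequence of Fcho1, which acts in endocytosis, and 34 bp after the start of Synpo, an actin-associated protein. Their means fell from 65.2% to 22.1% and from 51.8% to 8.50%.

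Among called CpGs with separate groups, the 10 higher and the 10 lower with the smallest p were taken by rule. None of the 20 passed edgeR's test at the same q. The CpG with the smallest p among those higher lay in the coding sequence of Gltpd2, a glycolipid transfer protein, at 1161 bp from its start. It read 11.1%, 2.90% and 16.1% in DMSO and 52.9%, 42.2% and 39.0% in BR extract, at 31 to 72 and 17 to 187 reads (q = 4.90e-28 by logistic regression on scaled reads, 2.27e-11 on unscaled reads, and 0.314 by edgeR). Of 6 tested neighbours within 34 bp, 4 passed the threshold of 10 points and were higher as well. The DBP and agent samples read 11.2% to 28.6% at this CpG, below all 3 BR extract samples. At 733 bp inside Nomo1, a membrane protein of the endoplasmic reticulum, the levels were 7.89%, 17.6% and 15.8% in DMSO and 38.9%, 62.9% and 63.0% in BR extract.

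Upstream of Ermap, an erythroid membrane protein, the CpG at -838 bp read 48%, 0% and 63.6% in DMSO and 92%, 100% and 92.6% in BR extract. DBP alone read 86.4%, 88.9% and 76.5% there and the agent samples 71% to 84.0%, so all 9 samples with DBP lay above the 3 with DMSO. The study lists a site upstream of Ermap in DBP against DMSO, and whether it is this CpG was not checked. At -22901 bp from the start of Olfr199, an olfactory receptor gene, all 40, 62 and 69 reads of the BR extract samples were methylated. The DMSO samples read 92.9%, 52.4% and 85.7%. The DBP and agent samples read 97.4% to 100% there, so DMSO sample 2 stood apart from the other 11. In Plaur, the receptor of urokinase, the CpG read 36.2%, 43.4% and 20.9% in DMSO and 52%, 71.6% and 60.8% in BR extract, with 25 or more reads in each. The remaining 5 differed by 27.9 to 72.9 points in pooled scaled reads. They were the Megf9 CpG, 1 in 9130404H23Rik and 3 between genes. These 3 lay at 89701 bp from the start of Cdca7, -16055 bp from that of Emid1 and 194550 bp from that of Nphp4. The Emid1 CpG and its 3 tested neighbours lie at steps of 16 bp, and all 4 were higher by 10.6 points or more.

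The lower CpGs began with 2 that lie 38 bp apart between genes, at -21034 and -20996 bp from the start of Gpbp1. At the first, DMSO read 54.8%, 33.8% and 60.7% and BR extract 0%, 10.4% and 8.72%. At the second, DMSO read 58.5%, 76.5% and 75% and BR extract 0%, 18.3% and 50.9%. In the coding sequence of Adamtsl3, a glycoprotein of the extracellular matrix, DMSO read 73.9%, 71.4% and 51.7% and BR extract 20%, 13.2% and 15.8%, with 14 to 53 reads. The CpGs 11 and 15 bp away were also called lower, although the first of them averaged 53.3% ± 36.4 (SD, n = 3) in BR extract. In the coding sequence of Bcl9, a coactivator of beta-catenin in Wnt signaling, DMSO read 86.1%, 64.3% and 89.3% and BR extract 62.5%, 38.5% and 41.7%. In an intron of Mthfd1, an enzyme of folate metabolism that feeds methyl group supply, DMSO read 93.3%, 95% and 100% and BR extract 63.6%, 70.5% and 54.7%. The groups were close at Bcl9, 64.3% against 62.5%, and far apart at Mthfd1.

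In Lnx2, a ubiquitin ligase, DMSO read 89.8%, 88.5% and 84.6% and BR extract 52.3%, 39.5% and 61.2%. Agent sample 3 read 23.8% there, below all the others. In pooled scaled reads, 7 tested neighbours within 142 bp differed by less than 10 points. As group means, DMSO and BR extract read 83.9% ± 14.2 and 68.0% ± 22.3 at 114 bp, and 83.6% ± 1.96 and 93.8% ± 8.55 at 142 bp (SD, n = 3). Of the lower CpGs, 3 stood alone among unmethylated neighbours in promoters, and each lay in a CCGG. The hybrid strain was read against the mm9 reference, and sequence differences between them at these CpGs were not checked. In Trank1 the CpG 739 bp after the start read 70.6%, 50% and 50% in DMSO and 0%, 14.5% and 20% in BR extract. Its 8 tested neighbours averaged at most 4.44% in either group. At Ppp6r1, a regulatory subunit of a protein phosphatase, the CpG at -191 bp read 54.5%, 53.6% and 58.8% in DMSO and 44.4%, 8.82% and 3.39% in BR extract. Its 8 neighbours averaged at most 1.11%. DBP alone read 17.6%, 57.6% and 12.5% at this CpG, as widely spread as BR extract. In Ccdc64b the CpG read 47.1%, 39.4% and 33.3% in DMSO and 18.8%, 9.76% and 15.2% in BR extract, and 3 neighbours at most 0.565%. Between genes, 221421 bp from the start of Ppp4r2, the means were 65.8% and 13.7%.

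**Figure D3:**
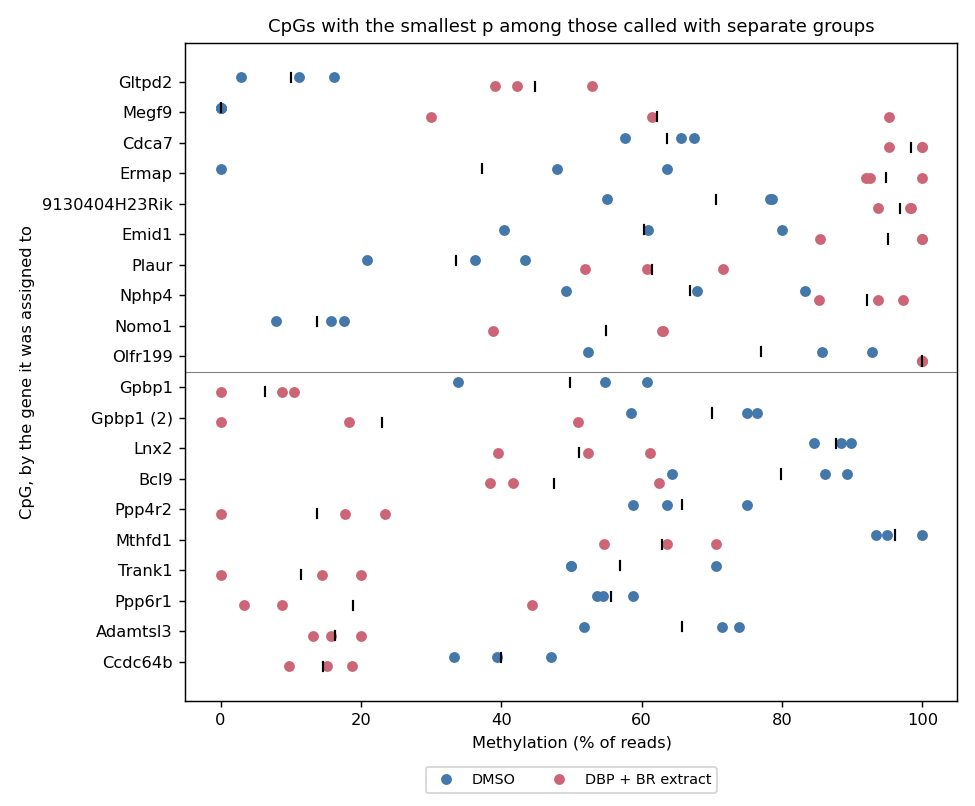
Methylation (% of reads, x axis) in each of the 3 DMSO and 3 BR extract samples at the 10 higher (above the grey line) and 10 lower CpGs with the smallest p among called CpGs with separate groups; bars mark group means. The groups are separate at every CpG by the rule of choice, and the gap is narrow at Nphp4 and Bcl9 and wide at Gltpd2 and Mthfd1.

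Runs of 3 called CpGs were found at 9 places, and at 4 of these the mean over the run separated all 3 and 3 samples. In an intron of Sfpi1, which encodes the myeloid transcription factor PU.1, the run read 76%, 85.7% and 39.6% in DMSO and 100% in each BR extract sample. In Gnas, an imprinted locus that encodes the stimulatory G protein subunit, 3 CpGs over 40 bp read 53.9%, 58.3% and 41.5% in DMSO and 9.09%, 25.1% and 17.1% in BR extract. The tile that begins inside this run was not called (53.7% ± 10.4 against 16.1% ± 10.4, SD, n = 3), and its edgeR FDR was 0.111. DBP alone read 55.6% ± 29.6 in that tile and the agent samples 36.3% ± 22.1, a spread wider than in either group compared. The Adamtsl3 run read 63.5% ± 12.6 and 34.9% ± 19.5. A run between genes, 143206 bp from the start of Gm4983, read 57.5% ± 11.6 and 27.3% ± 5.07. At the other 5 places, near Col13a1, Niacr1 and Ssx2ip and in Sds and Tbcd, the groups overlapped. In Tbcd, for example, 2 BR extract samples read 20% and 18.2% and the other 79.6%, a level of the DMSO range.

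The tiles were tested with edgeR's negative binomial model, which includes the spread between samples. Of 29642 tiles, 6 passed an FDR of 0.05 with a difference over 10 points (0.0202%), 5 higher and 1 lower. An unadjusted p under 0.05 was found in 1663 tiles (5.61%). Reads of a tile come from the positions that each library happened to cover, so the level was also computed from the positions with 5 or more reads in all 6 samples. In the body of Pik3r5, a regulatory subunit of PI 3-kinase gamma in leukocytes, the tile at chr11:68284001-68285000 read 79.2%, 82.7% and 81.0% in DMSO and 100%, 99.2% and 98.3% in BR extract (edgeR, FDR = 5.08e-05). At its 3 shared positions the means were 80.6% and 99.0%, nearly the same as with all reads. DBP alone averaged 85.4% ± 5.50 (SD, n = 3) and the agent samples 94.3% ± 2.38.

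The tiles in 4921515J06Rik, Ggcx and 1110012J17Rik were higher by 25.3, 20.8 and 16.5 points, with FDR of 0.00973, 0.0177 and 0.00589 by edgeR. At 3 shared positions in each, the differences were 27.1, 21.1 and 15.4 points, and the groups stayed separate. Ggcx encodes the carboxylase that uses vitamin K. The widest of the higher tiles lay in the body of Klf2, a transcription factor of endothelium and lymphocytes, at chr8:74844001-74845000. It read 27.0%, 33.1% and 30.6% in DMSO and 66.6%, 69.1% and 70.0% in BR extract (edgeR, FDR = 0.000562), but no position of it had 5 reads in all 6 samples, so the same positions could not be compared. The lower tile lay between genes at -9674 bp from the start of 2900010M23Rik, chr17:27280001-27281000. It read 88.9%, 93.0% and 84.0% in DMSO and 60%, 51.1% and 55.1% in BR extract (edgeR, FDR = 0.0212), and its 3 shared positions averaged 87.9% ± 3.59 and 37.2% ± 11.1 (SD, n = 3).

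By the rule, tiles close to the threshold are given with their values though they were not called. A tile near Gm15831 averaged 83.4% ± 4.23 and 96.4% ± 1.10 (SD, n = 3), nearly the same as at its 2 shared positions. Near Sox2, a transcription factor of stem cells and epithelia, a tile 22481 bp after the start averaged 89.6% ± 9.76 (SD, n = 3) and 45.9% ± 17.5, with no shared position. At the promoter of Prss22, a serine protease of epithelia, the means were 52.7% ± 13.1 and 15.7% ± 7.54, and no position was shared. At Chrm4, a muscarinic receptor, they were 24.5% ± 18.3 and 1.73% ± 1.63, again with no shared position. At Rab3gap1, which acts on the small GTPase Rab3, they were 18.8% ± 10.3 and 2.58% ± 1.34, and the 3 shared positions averaged 15.9% and 3.56%. DBP alone averaged 5.54% and the agent samples 9.85% in the Rab3gap1 tile, against 9.46% in the lowest DMSO sample. With only the shared positions and 5 reads drawn at each, 9359 tiles could be tested and 3 passed by edgeR. They lay between genes 200111 bp from the start of Slc4a3 (37.3% ± 8.33 and 5.33% ± 6.11), in Gm20388 (1.48% ± 2.57 and 29.6% ± 16.7) and in Pitpnc1 (65% ± 8.66 and 96.7% ± 5.77). None of the 3 had passed with all reads, and the Slc4a3 tile holds the CpG whose sequence is given above.

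**Figure D4:**
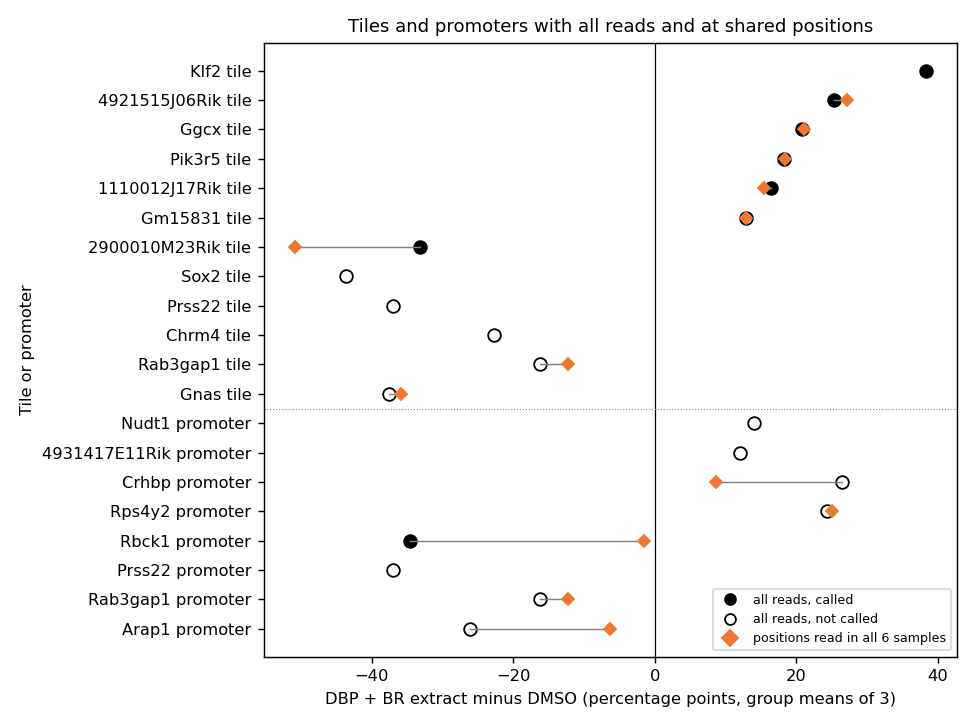
Difference in methylation, BR extract minus DMSO (percentage points, group means of 3), for the tiles (upper 12) and promoters (lower 8) named by rule, with all reads (circles, filled where called) and at positions with 5 or more reads in all 6 samples (diamonds; none where no such position exists). At the Rbck1 promoter the difference goes from -34.6 with all reads to -1.46 at shared positions, whereas at Pik3r5 it stays at 18.2 and 18.4.

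Of the 11057 promoters, 1 passed (0.00904%), and 585 had an unadjusted p under 0.05 by edgeR (5.29%). The one called was Rbck1, a subunit of the ubiquitin ligase complex that makes linear chains. With all reads it read 45.4%, 61.8% and 46.2% in DMSO and 9.31%, 19.7% and 20.5% in BR extract (edgeR, FDR = 0.0179). At 7 positions read in all 6 samples, however, it averaged 6.52% ± 3.65 and 5.06% ± 5.46 (SD, n = 3), and the groups overlapped. Without DMSO sample 2, DMSO sample 3 or BR extract sample 3 the Rbck1 promoter did not pass (edgeR, FDR = 0.562, 0.26 and 0.0696). At Arap1, which was not called, the difference was -26.1 points with all reads and -6.28 points at 9 shared positions. Among promoters with a higher level that were not called, Nudt1, which clears oxidised nucleotides, read 7.49% ± 2.25 and 21.5% ± 2.32 with no shared position. Crhbp read 23.9% ± 8.76 and 50.4% ± 9.49, with 0% and 8.64% at 3 shared positions. Rps4y2 read 32.7% ± 10.8 and 57.0% ± 3.40, with 22.4% and 47.4% at 7 shared positions, close to the difference with all reads. The 4931417E11Rik promoter read 84.7% ± 7.80 and 96.7% ± 2.46, with no shared position, and the promoters of Prss22 and Rab3gap1 had the values of their tiles.

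Over all promoters, 6990 were lower and 4067 higher in BR extract, with a median difference of -0.682 points. At the 5633 promoters with enough shared positions the median difference was 0. The groups did not overlap at 1237 promoters (11.2%), 896 of them lower and 341 higher. The lists below are read against these shares.

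None of the 13 lists of genes chosen for the carcinogen, the tumor or the tissue had a promoter that passed. In the AhR and DBP activation list, the receptor for polycyclic hydrocarbons and the enzymes that turn them into reactive forms, 7 of 14 genes were measured, with 3 higher and 4 lower and a median of -0.376 points. Ahr itself averaged 3.44% and 3.07%, Cyp1a1, which oxidises such compounds, 28.1% and 31.5%, and Ahrr, the repressor of the receptor, had the largest difference (22.4% ± 1.80 and 27.7% ± 9.01, SD, n = 3). Por, the electron donor of the P450 enzymes, was the 1 gene of the list with separate groups (2.59% and 6.53%). Of 14 measured genes of the NRF2 and conjugation list, which defends against electrophiles, 6 were higher and 8 lower. The largest difference was at Maff, from 15.8% ± 7.28 to 7.49% ± 4.46. Of 34 measured genes of adduct repair and bypass, 10 were higher and 24 lower, with a median of -0.976 points. Nthl1, a base excision glycosylase, had the largest difference there (17.2% ± 4.20 and 37.9% ± 39.9, SD, n = 3). That value came from 1 library, since BR extract sample 1 read 83.9% at 31 reads, and the other two read 16.9% and 12.9%.

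Of 33 measured tumor suppressors of oral cancer, 11 were higher and 22 lower, and no single promoter of the list had separate groups. The median of -0.646 points was close to that of all promoters. The mean level over the list was nevertheless lower in each BR extract sample than in each DMSO sample. Rassf5, a binder of Ras, had the largest difference (22.8% ± 10.3 and 11.8% ± 7.51, SD, n = 3), which shrank to -2.16 points at 7 shared positions. Cdkn2a, the locus of p16 that is often silenced in this tumor, averaged 4.64% and 3.52%, and Cdh1, the epithelial cadherin, 11.8% and 12.0%. Among 17 genes of inflammation and NF-kB, 8 were higher and 9 lower. Among 30 promoters of growth factor and cell cycle genes, which include 2 annotations of Fgfr1, 8 were higher and 22 lower, with a median of -1.41 points. The largest difference was at Ereg, a ligand of the EGF receptor, whose DMSO samples averaged 9.57% ± 2.86 and BR extract samples 22.7% ± 9.86 without overlap (edgeR, FDR = 0.886). Of 38 Wnt signaling promoters, 7 were higher and 31 lower, with a median of -1.38 points. At the 23 of them with enough shared positions the median was 0. Lrp5, a Wnt coreceptor, differed most (46.2% ± 23.1 and 28.5% ± 20.2) with 1.37 points at 2 shared positions.

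Of 18 measured writers and erasers of DNA methylation, 9 were higher and 9 lower. Groups were separate at 4 (22.2%, against 11.2% of all promoters): Uhrf1, which guides DNMT1, was higher (2.37% and 4.27%), while Tet2 (6.68% and 2.45%), Mat2a, which makes the methyl donor (7.37% and 4.30%), and Mbd1, a reader of the mark, were lower. Mbd1 had the largest difference, from 17.6% ± 3.47 to 7.51% ± 3.02 (SD, n = 3), with an FDR of 0.611 by edgeR. At its 6 shared positions the difference was -5.52 points and the groups overlapped. In the list as a whole 2 promoters had an unadjusted p under 0.05.

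Markers of the cell types that the pooled tissue can hold were read in the same way. Only DNA was measured, so these levels do not count cells, and a change of cell types and a change within cells cannot be told apart. Of 22 measured squamous epithelium genes, 4 were higher and 18 lower, with a median of -1.77 points. Their mean level was 15.9%, 17.0% and 16.5% in DMSO and 13.8%, 15% and 15.6% in BR extract, so the groups were separate. The mean over all promoters overlapped (11.1%, 12.5% and 12.0% against 9.84%, 11.6% and 10.8%). Separate list means were not particular to epithelium, since those of the tumor suppressor list were separate in the same direction. At the 11 squamous epithelium promoters with enough shared positions the median was -2.22 points. Krt4, a keratin of the oral lining, averaged 94.0% ± 3.07 and 84.0% ± 7.80 (SD, n = 3) without overlap, with an FDR of 0.886 by edgeR. At its 6 shared positions the difference was -10.4 points and the groups overlapped. Esrp1 and Epcam, epithelial genes, averaged 11.2% and 10.2%, and 3.48% and 4.86%.

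The skeletal muscle list averaged 28.8%, 28.7% and 25.7% in DMSO and 26.5%, 23.0% and 24.0% in BR extract over 10 genes, and the groups overlapped. Tnni1, a troponin of slow muscle, differed most (44.6% ± 18.1 and 27.6% ± 18.2). Of 5 measured leukocyte genes, 2 were higher and 3 lower, and Coro1a differed most (22.4% and 17.1%). Of 8 measured fibroblast and vessel genes, 2 were higher and 6 lower, and Eng, an endothelial receptor, differed most (49.9% and 45.9%). Of 8 measured salivary gland and adipose genes, 2 were higher and 6 lower, with the largest difference at Elf5, a factor of glandular epithelium (50.9% ± 8.74 and 39.6% ± 14). In none of these 4 lists did a promoter pass. Groups were separate at 3 of the 10 skeletal muscle promoters (30%, against 11.2% of all promoters), 1 higher and 2 lower. No promoter of that list had an unadjusted p under 0.05 by edgeR. In the salivary gland and adipose list 1 of 8 was separate (12.5%). The leukocyte and the fibroblast and vessel lists had none with separate groups.

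**Figure D5:**
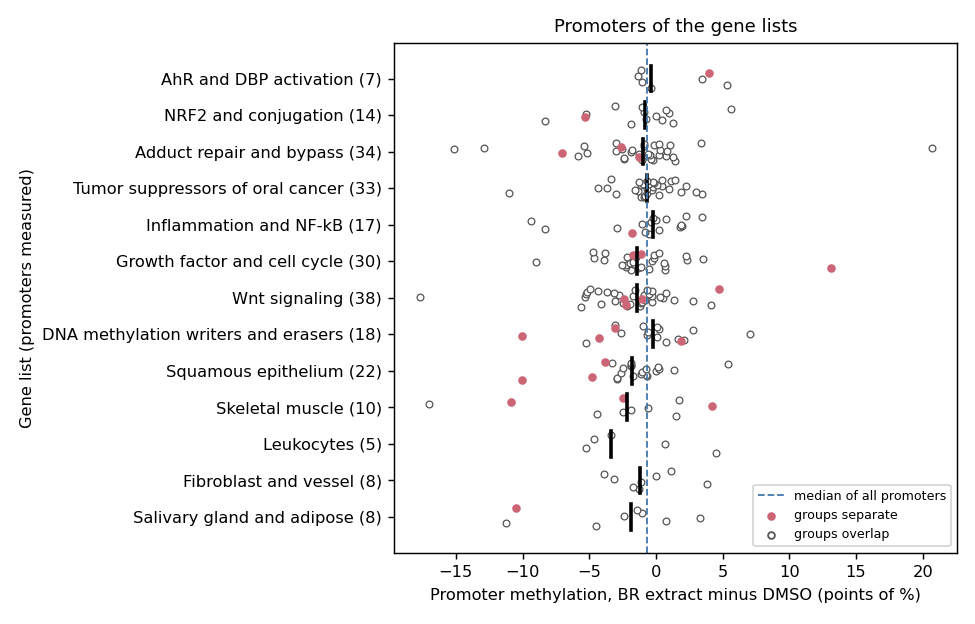
Difference in promoter methylation, BR extract minus DMSO (percentage points, x axis), for each measured promoter of the 13 gene lists; filled points have groups that do not overlap, black bars are list medians and the dashed line is the median of all promoters (-0.682). No point passed the test, and the list medians lie between -3.38 and -0.251.

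Single CpGs assigned to genes of the lists were also called at 25 points, and those described here were chosen after their values were seen. A CpG in Sfrp1, a secreted Wnt antagonist, fell from 66.9% ± 5.95 to 26.4% ± 26.2 at 21974 bp after the start. Krt7, a keratin of ducts, rose from 49.3% ± 8.97 to 76.5%, and a CpG 207 bp after the start of Myc from 12.8% ± 13.4 to 39.0%. CpGs between genes were assigned by nearest start to Cd2 (73.4% to 40.2%), Col5a1 (93.4% to 69.2%), Hsp90ab1 (39.0% to 14%), Rela (59.5% to 44.8%) and Pitx1 (39.8% to 68.3%). The farthest lay at -86403 bp from the start of Col5a1 and 73286 bp from that of Cd2. The groups overlapped at Cd2, Pitx1, Myc, Hsp90ab1 and Rela.

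Of the sites that the study lists in DBP against DMSO, those of Fgf3, Ctnnb1, Vamp3, Ppp1r21 and Pkm were read in the same samples. The other listed sites were not read as a set. At the Fgf3 site, at -9543 bp from the start of this growth factor gene, chr7:152014445-152014446, DMSO read 55.6%, 33.3% and 31.2% and BR extract 88.2%, 64.4% and 71.3% (difference of pooled scaled reads 29.8 points, q = 4.55e-07 by logistic regression, q = 0.761 by edgeR). Without scaling the difference was 30.4 points. DBP alone read 87.5%, 70.0% and 68.8%, in the range of the BR extract samples, and the agent samples read 51.0%, 48.8% and 29.3%. Tested neighbours at -36, -28 and -5 bp from the Fgf3 site differed by -0.359, 9.59 and 10.1 points between BR extract and DMSO, and none passed. Without DMSO sample 3 the difference at the site itself was 24.4 points. At the Ctnnb1 site, 671 bp after the start of the beta-catenin gene, DMSO read 20%, 57.9% and 41.2% and BR extract 28.9%, 23.4% and 14.3%, and the groups overlapped. At the Vamp3 site, in a promoter of Camta1 by the annotation used here, DMSO read 71.4%, 57.1% and 60% and BR extract 25%, 50% and 45.0%. The 2 Ppp1r21 sites averaged 44.0% and 61.3%, and 2.78% and 8.03%, and the groups overlapped at both. The Pkm site had 7 reads in BR extract sample 1 and was not tested.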

How the data were processed

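ERRBS of oral tissue was compared in 3 DMSO and 3 DBP plus BR extract samples, grouped by their labels. By the submitters' notes and the study's methods, the authors used Trim Galore 0.3.3 for trimming and Bismark 0.10.1 for alignment to mm9 and methylation calls. The deposited values are read counts, methylated and unmethylated, per cytosine and strand, and a percent derived by the authors, which was not used. Duplicate reads cannot be recognised in such counts. All 5202461 positions were CpGs of the mm9 reference, and genes came from GENCODE vM1 on that build.

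For single CpGs, the parameters of the study's methods were used: a cytosine needed 10 reads and coverage up to the 99.9th percentile of its sample, coverage was scaled to the highest median (DMSO by 2.47, 2.47 and 3, BR extract by 1, 1.91 and 1.68), strands were merged, and a logistic regression with Benjamini-Hochberg q-values was run over all CpGs. Printed percentages are unscaled, whereas differences in points of single CpGs and their neighbours are of pooled scaled reads unless stated. Tiles and promoters were tested with edgeR 4.0.16 (R 4.3.3) by likelihood ratio, over all of them. Levels used 10 reads drawn per position, with exact permutation tests in SciPy 1.17.1, and NumPy 2.4.6, pandas 2.3.3, statsmodels 0.14.6 and matplotlib 3.10.9 were also used. CpGs were assigned to a promoter, then a gene body, then the nearest start. The scripts were tested on simulated data.

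Named CpGs were the 10 higher and 10 lower with the smallest p among those called over 25 points with separate groups. Named tiles (6 per direction) and promoters (4 per direction) were those called with the largest difference, filled up by smallest p among those over 10 points, and each list gave its member with the largest difference. Other list members and sites were named after their values were seen, apart from the study's sites of Fgf3, Ctnnb1, Vamp3, Ppp1r21 and Pkm. The members and lists were chosen with earlier results of these data known. Sex chromosomes and CpG island annotation were not used here. A few genes that these rules would name are not reported here.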

Additional observations from a re-analysis of the deposited data

How the results depend on the processing

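At 25 points the 480 of 41899 CpGs became 8 with 10 drawn reads and 0 with edgeR (both without scaling). The number tested changed with the minimum of reads: 2140 of 111734 passed at 5 reads and 40 of 7805 at 20 reads. Leaving out 1 sample in turn gave 734 of 46011 (DMSO 2) to 1229 of 72922 (DMSO 3). At 10 points the 4602 became 1176 without scaling, 8 with drawn reads and 0 with edgeR. It was 9494 of 111734 at 5 reads and 748 of 7805 at 20 reads. Leaving out 1 sample gave 4616 of 46011 (DMSO 2) to 6885 of 72922 (DMSO 3). Of the 20 CpGs named by rank, 16 stayed called without DMSO sample 2 and 16 without BR extract sample 2.

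The 6 of 29642 tiles became 0 with 20 drawn reads, 0 with edgeR's quasi-likelihood test, 16 at FDR 0.1 and 1845 with logistic regression. With other numbers tested, 10 of 48567 passed at 10 reads, 1 of 12495 at 50 reads and 3 of 9359 at shared positions. Leaving out 1 sample gave 2 of 31410 (without DMSO 2) to 33 of 29710 (without BR extract 2). The Pik3r5 tile passed without each sample in turn, whereas Klf2 failed without DMSO 1 or 3, 4921515J06Rik without DMSO 2 or 3 or BR extract 2 or 3, Ggcx without DMSO 2 or 3 or BR extract 3, 1110012J17Rik without DMSO 1 or 2 or BR extract 3, and 2900010M23Rik without any 1 DMSO sample or BR extract 3. The 1 of 11057 promoters became 0 with drawn reads, 0 with quasi-likelihood, 4 at FDR 0.1 and 474 with logistic regression. With other numbers tested, 2 of 12284 passed at 10 reads and 3 of 10017 for 500 bp. At shared positions 0 of 5633 passed, and Rbck1 turned to a difference of 1.90 points. Leaving out 1 sample gave 0 to 17, the latter of 11137 (without DMSO 1). The shared-position settings were chosen after seeing the data.

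The intermediate share kept its direction without each sample (-3.39 to -2.72 points), as did promoters (-0.514 to -0.334). Without 1 sample the difference ran from -0.0670 (without DMSO 3) to 0.385 in exons, from -0.419 to 0.109 (DMSO 1) in introns and from -0.391 to 0.184 (DMSO 1) between genes, where it was 0.0428 without BR extract 2. The excess distance between BR extract samples was 1.48 points (1.16 to 1.98 without 1 sample) and 3.8 at intermediate positions.

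Samples with the same replicate number did not deviate together (correlations 0.00274, -0.0129 and -0.00798, and 1 of 3 closest to its own number). With a replicate block 478 CpGs passed at 25 points, 4043 at 10 points, 37 tiles and 93 promoters. Single levels are limited by depth: at 20 reads a level of 50% has an interval from 29.9% to 70.1%.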
